A study of Mus musculus with 12 samples.

Results

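Of the 28352 genes that could be tested in mammary tumours of 6 mouse strains, 37 were collagen genes. They were chosen by name, as array probes whose gene name reads Col, a number, a and a number, and each gene was represented by its brightest probe over all arrays. The rule found 67 probes. A Col25a1 probe was the 1 probe that fell below the filter on dim signals, and all 37 genes kept a probe whose tumour signal was well above background on every one of the 24 arrays. By collagen class the genes were 11 fibrillar, 6 basement membrane network, 3 beaded filament, 7 fibril-associated (FACIT), 3 short-chain network, 1 anchoring fibril, 2 multiplexin and 4 transmembrane genes.

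All 6 strains carried an activated neu (Erbb2) transgene of the NDL type, which the MMTV promoter drives in mammary epithelium, NDL25 included. The tumours were from females. The NYPD receptor lacks the main tyrosine phosphorylation sites of the receptor tail, the YB, YC, YD and YE receptors each carry a different site put back into it, and NDL25 is the parental strain with the sites intact. What each receptor lacks or carries is background and not part of the sample labels. Each strain was represented by 10 flash-frozen tumours, taken after 6 weeks of tumour growth, and equal amounts of RNA from 5 tumours each were combined into 2 pools, so the spread between single tumours is not visible. On 2 two-colour Agilent arrays per pool, with the dyes exchanged, the tumour RNA met a commercial mixture of mouse RNA, the Universal Mouse Reference RNA of Stratagene. A value is the log2 ratio of tumour over reference of a pool. The labels give the dye of a channel only as 1 of 2 options, so the tumour channel was taken from luminal and milk genes. The ratio says how far a gene lies above or below that reference and is not a level that can be set against another gene's.

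Median tumour intensity was 365 to 764 per array over a median background of 39 to 64, and 97.3% to 98.9% of the probes on an array were well above background. The arrays were read in 3 feature extraction sessions, per the file headers. Session 1 held YD, YE and 1 array of YC pool 2, session 2 held YB, YC pool 1, the other array of YC pool 2 and NDL25, and session 3 held NYPD alone. Strain and session therefore cannot be told apart in any difference that involves NYPD. The YD and YE differences against NDL25 also lie across sessions 1 and 2. In a fit with session as a block, only YC pool 2 links these sessions, with 1 array in each. Luminal and milk genes, which define the labelled tissue, lay above the reference as lists in all 12 pools. Means were 1.98 to 2.80 for 6 luminal markers and 1.26 to 3.11 for the 6 of 8 milk genes that were tested. Because these genes also set the tumour channel, their place above the reference follows from that choice. Genes chosen as markers of the reference (11 probes) had array medians of 0.07 to 0.23, with Afp, 1 of them, below 0 on all 24 arrays. Luminal and milk genes also differed between strains in limma. In NYPD against NDL25 4 of the 6 milk genes were higher, Wap 5.02-fold (adjusted p = 0.0404) and Glycam1 5.00-fold (0.0382) among them. Krt19 was 10.6-fold higher in YB than in NDL25 (0.0315), and Mfge8 by 1.92 on the log2 scale (0.0239). In YE against NYPD Wap, Glycam1 and Krt19 had log2 differences of -2.28, -2.63 and -3.42 (0.0345, 0.0241 and 0.0458), and in YB against NYPD Glycam1 had -2.07 (0.0211). The part of these differences in the collagen results of the same contrasts was not tested. The 5 salivary gland markers averaged 3.45 and 3.56 in the YB pools, against 0.02 to 0.23 in the pools of the other strains, so the YB pools stood apart from the rest.

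Collagens are secreted proteins built from 3 chains wound into a triple helix. Fibrillar types form the rope-like fibrils of connective tissue, network-forming types build the sheet of the basement membrane, and fibril-associated types decorate the fibrils. In mammary tumours most interstitial collagen is made by fibroblasts, while epithelial cells contribute collagens that anchor them to the basement membrane.

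Relative to the reference the collagen genes were spread wide. Over the 12 pools 6 of the 37 genes (16.2%) had a mean above 1 on the log2 scale and 6 (16.2%) a mean below -1, against 5.10% and 5.27% of all genes tested. In all 12 pools 11 genes (29.7%) lay above the reference and 6 (16.2%) below it, against 23.6% and 19.4% of all genes. The range of the 6 strain means had a median of 0.79 over the collagen genes and of 0.29 over all genes. The chosen collagen probes had a median intensity of 1832 over both channels, while median tumour intensity over all probes was 365 to 764 per array. The part of brightness in these comparisons with all genes was not tested. NYPD had the highest strain mean for 14 of the 37 genes and YB for 12, and YE had the lowest for 18. The same counts were not made over all genes, so these have no baseline and cannot be read as particular to collagens.

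**Figure D1:**
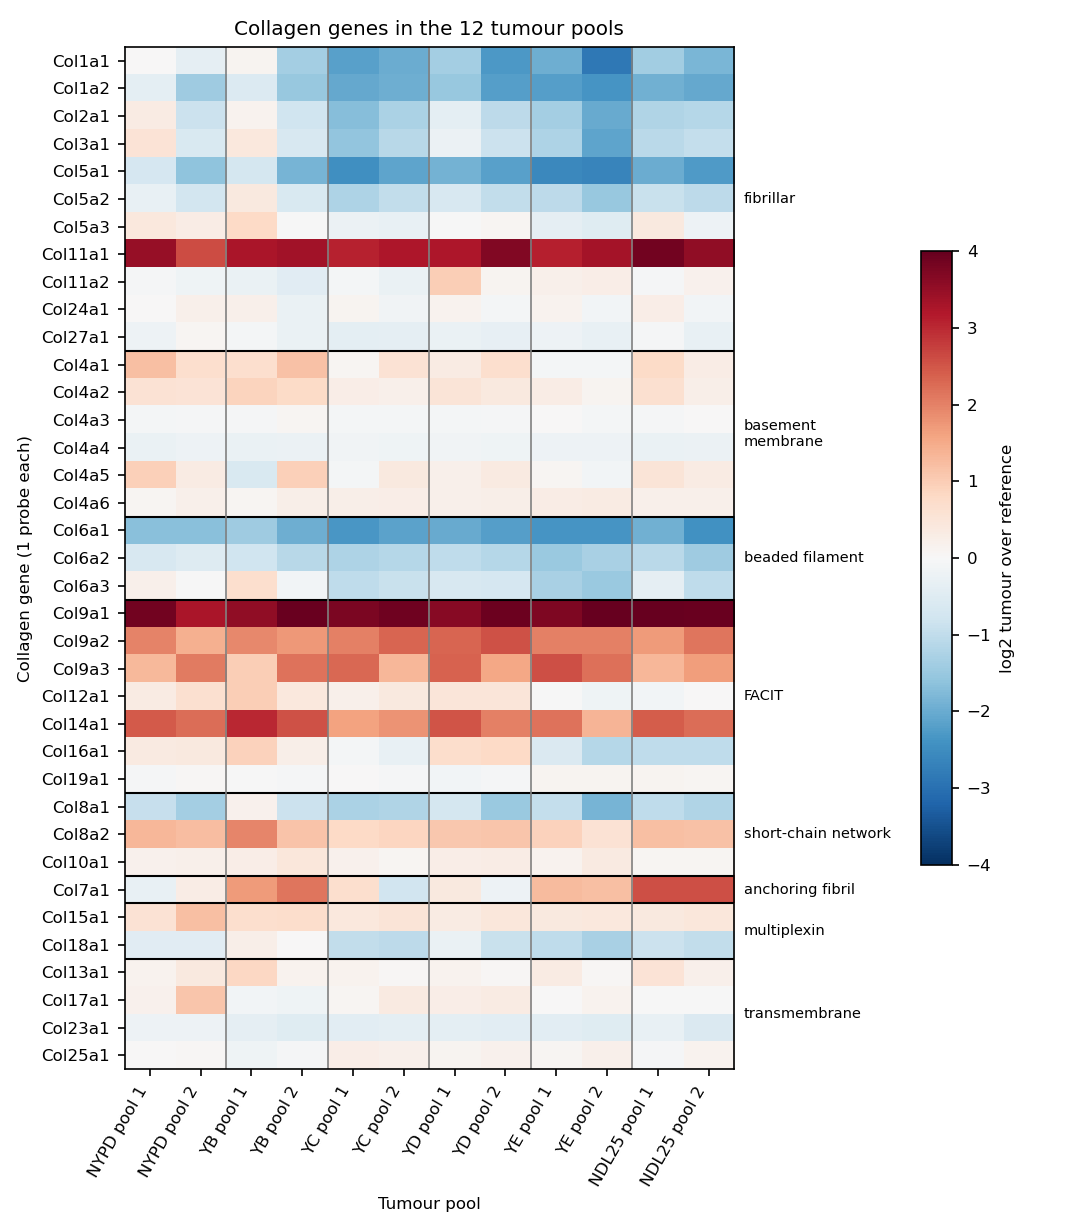
Log2 tumour over reference of all 37 collagen genes (rows, by class, 1 probe a gene) in the 12 tumour pools (columns, by strain). Red is above and blue below the reference. Col9a1 and Col11a1 are red in every pool, Col5a1 and Col6a1 blue in every pool, and Col7a1 is darkest in the NDL25 pools.

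Fibrillar collagens were led by Col1a1, Col1a2 and Col3a1, the chains of types I and III, the main fibrils of loose and dense connective tissue. Col1a1 had ratios of 0.01 and -0.35 in the NYPD pools, 0.11 and -1.37 in YB, -2.18 and -1.99 in YC, -1.35 and -2.29 in YD, -1.95 and -2.85 in YE, and -1.39 and -1.82 in NDL25. Both NYPD pools and YB pool 1 were high, YE pool 2 was low, and the 2 YB pools differed by more than the NYPD and NDL25 means did. Col1a2 had ratios of -0.40 and -1.43 in NYPD, -0.56 and -1.52 in YB, -2.05 and -1.96 in YC, -1.51 and -2.22 in YD, -2.21 and -2.37 in YE, and -1.93 and -2.06 in NDL25. Its reference channel was saturated on 11 arrays and its tumour channel on 0. The ratios of those arrays can therefore read too high, and differences between pools can be distorted. Col3a1 had ratios of 0.54 and -0.62 in NYPD, 0.42 and -0.65 in YB, -1.57 and -1.09 in YC, -0.24 and -0.87 in YD, -1.24 and -2.10 in YE, and -1.07 and -0.95 in NDL25. The first pools of NYPD and YB were again the highest and YE pool 2 the lowest. Col5a1 and Col5a2, chains of the type V collagen that starts fibrils, ran from -2.64 to -0.67 and from -1.51 to 0.38, with the first pools of NYPD and YB the 2 highest for both.

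By their brightest probes 0 of the 11 fibrillar genes passed limma in the F test over the strains or in any of the contrasts (9 planned, 1 added), and a second Col1a1 probe that did pass is given with the other probes below. In NYPD against NDL25, where 1.05% of all genes were called, 9 of the 11 differences were above 0 with a median of 0.43, against -0.01 over all genes, and 4 had an unadjusted p under 0.05. Col1a1 had 1.43 ± 0.52 (moderated SE, n = 2 pools per strain, limma adjusted p = 0.238), Col1a2 1.08 ± 0.41 (0.254) and Col3a1 0.97 ± 0.50 (0.403). In YE against NYPD, where 1.86% of all genes were called, the median was -0.77, against 0.01 over all genes, and 7 genes had an unadjusted p under 0.05. Col1a1 had the smallest adjusted p of the class there, with a difference of -2.23 ± 0.52 (adjusted p = 0.0796). Shares of genes called are at adjusted p, so they are no baseline for counts at unadjusted p, here and below. In 7 of 11 genes both YE pools lay below both NYPD pools, a pattern that 22.2% of all genes showed. All 11 fibrillar genes had a difference below 0 in YC against NDL25 (median -0.23) and 10 of 11 in YE against NDL25 (median -0.47). In both contrasts 0 of the 11 had an unadjusted p under 0.05, and the lowest limma adjusted p was 0.517 and 0.730. Both YC pools lay below both NDL25 pools in 7 of 11 genes and both YE pools in 8 of 11, against 25.6% and 20.3% of all genes.

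The spread between pools of 1 strain was of the same order. YB pool 1 was above YB pool 2 in 10 of 11 fibrillar genes, by a median of 0.94 and up to 1.48, and NYPD pool 1 above NYPD pool 2 in 9 of 11, by a median of 0.44 and up to 1.21. Fibroblast markers moved with these values. The 8 markers (Pdgfra, Pdgfrb, Thy1, Dcn, Lum, Fbln1, Fap and Dpt, all well above background on every array) averaged -0.09 and -0.29 in NYPD, 0.14 and -0.60 in YB, -0.96 and -0.73 in YC, -0.21 and -0.57 in YD, -0.89 and -1.25 in YE, and -0.68 and -0.81 in NDL25. Dcn and Lum are also in the list of fibril partners below, and 0 of the 8 passed limma in any contrast (7 had an unadjusted p under 0.05 in YE against NYPD and 2 in NYPD against NDL25). Their part in the collagen values was not tested. In pooled tumour RNA, more cells of a type and more RNA per cell cannot be told apart.

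**Figure D2:**
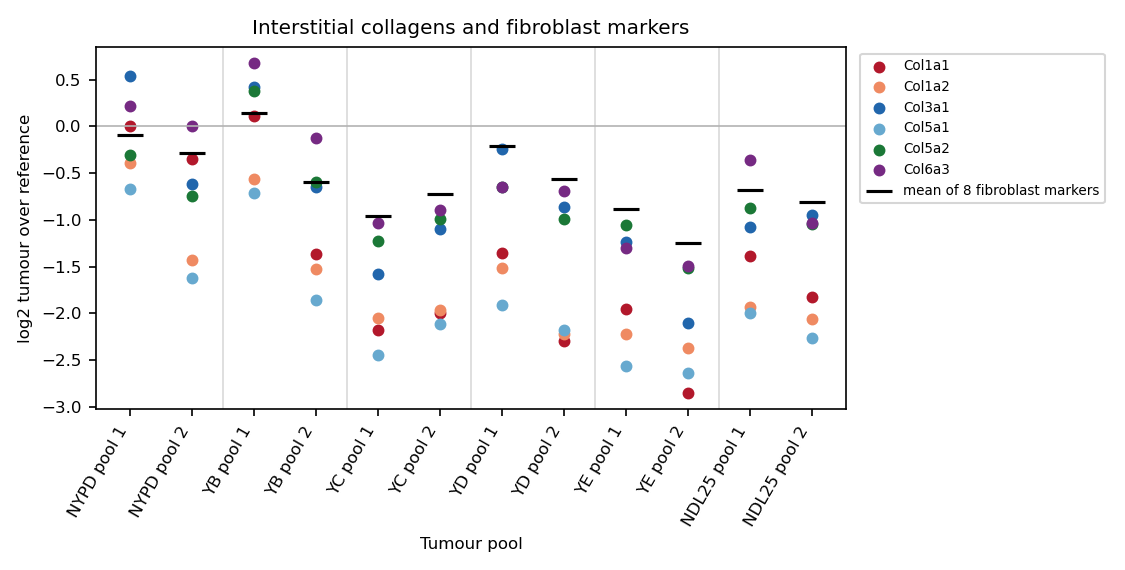
Log2 tumour over reference of 5 fibrillar genes and Col6a3 (coloured points) and the mean of 8 fibroblast markers (black bars) in each of the 12 pools. The first pools of NYPD and YB are the highest for most genes, YE pool 2 is low, and the marker mean runs between -1.25 and 0.14 with them.

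As members that ran together over the pools, Col1a2 and Col3a1 are shown with the 150 bases before their outermost annotated start, from RefSeq (GRCm38.p6), 5′ to 3′ on the gene's strand (both plus). The Col1a2 stretch is chr6:4505468-4505617 and the Col3a1 stretch chr1:45311388-45311537. Capitals mark matches, on either strand, to the CCAAT box (its name gives its letters), the GC box (letters GGGCGG), the TATA box (letters TATAAA) and the AP-1 motif (letters TGANTCA), and no matches overlapped here.
Col1a2: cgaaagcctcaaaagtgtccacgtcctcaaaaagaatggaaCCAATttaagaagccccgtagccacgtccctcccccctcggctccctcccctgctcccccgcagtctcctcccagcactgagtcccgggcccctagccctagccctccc
Col3a1: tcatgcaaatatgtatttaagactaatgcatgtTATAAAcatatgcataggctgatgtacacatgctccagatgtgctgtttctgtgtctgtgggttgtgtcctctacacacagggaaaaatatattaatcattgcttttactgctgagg
The Col1a2 stretch held 1 CCAAT match, had 62.7% G and C and no TATAAA, while the Col3a1 stretch held 1 TATAAA, had 37.3% G and C and no CCAAT match. RefSeq promoter windows were matched for 30 of the 37 genes (33 windows). Over the 250 bases before the start, CCAAT stood in 12 of 33 collagen windows (36.4%), against 33.8% of all 32851 windows, GGGCGG in 19 (57.6%, against 32.7%), TATAAA in 5 (15.2%, against 12.4%) and TGANTCA in 1 (3.03%, against 6.75%).

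Other fibrillar genes behaved differently. Col11a1, a chain of the type XI collagen known from cartilage fibrils, was named after its values were seen. Its ratio ran from 2.62 to 3.87 over the 12 pools, with a mean of 3.32 ± 0.32 (SD over 12 pools), 9.96-fold above the reference, and its strain means spanned 0.65. Col5a3, Col11a2, Col24a1 and Col27a1 stayed between -0.49 and 0.999, and the highest was the Col11a2 value of YD pool 1. The brightest Col2a1 probe, named for the cartilage collagen type II, stayed within 0.29 of the Col3a1 probe in every pool. The second Col2a1 probe ran from -0.02 to 0.32, so the 2 probes disagree and no pattern can be read for that gene. The brightest Col2a1 probe is still part of the fibrillar counts and medians above and of those over all collagen genes.

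All 3 beaded filament collagens lay lower in YE than in NYPD, and 2 of them passed the test. Col6a1, Col6a2 and Col6a3 are the chains of type VI collagen, a microfibril that surrounds cells in connective tissue. Col6a3 had ratios of -1.30 and -1.50 in YE and 0.22 and -0.00 in NYPD. Both YE pools were the lowest of the 12, and the other strains lay between -1.03 and 0.67. Col6a3 fell 2.85-fold in YE against NYPD (log2 difference -1.51 ± 0.28, n = 2 pools each, limma adjusted p = 0.0445). Col6a2 had ratios of -1.48 and -1.29 in YE and -0.65 and -0.53 in NYPD. The 2 NYPD pools were the highest of the 12. Col6a2 fell 1.74-fold in YE against NYPD (-0.80 ± 0.14, adjusted p = 0.0404). Col6a1 had ratios of -2.35 and -2.37 in YE and -1.66 and -1.67 in NYPD, a difference of -0.70 ± 0.20 that missed the threshold (adjusted p = 0.123).

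These were the 2 collagen genes of 37 called in YE against NYPD, where 1.86% of all genes were called. As NYPD was alone in its session, strain and session effects cannot be separated in these calls. With the authors' deposited ratios both calls were lost (-0.83, adjusted p = 0.0711 for Col6a2 and -1.56, 0.0552 for Col6a3). Each call was also lost when any pool of NYPD, YC, YD, YE or NDL25 was left out (adjusted p from 0.0508 to 0.174 for Col6a2 and from 0.0528 to 0.238 for Col6a3) and was kept without either YB pool. For Col6a3 2 dimmer probes (mean intensity 265 and 149, against 6877) stayed between -0.05 and 0.22 in all pools, so the result rests on the brightest probe. Averaging the 3 probes gave -0.54 (adjusted p = 0.0544). All 8 fibroblast markers were lower in YE than in NYPD as well, with differences of -1.23 to -0.73 and a median of -0.82, and their part in the type VI values was not tested. Against NDL25 type VI genes did not pass in any strain. The NYPD differences there were 0.49, 0.66 and 0.80 for Col6a1, Col6a2 and Col6a3 (adjusted p = 0.285, 0.0738 and 0.218), and both NYPD pools lay above both NDL25 pools for all 3, a pattern that 20.3% of all genes showed.

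**Figure D3:**
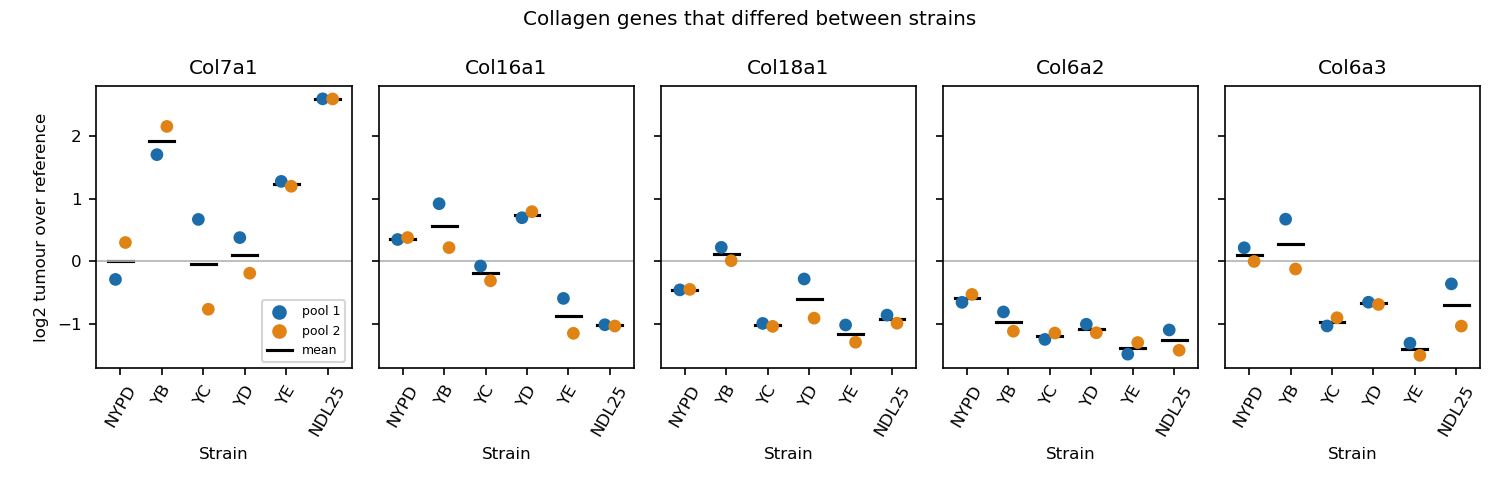
Log2 tumour over reference of the 5 collagen genes that passed limma in a contrast, by strain. Points are pools 1 and 2, bars the strain mean. Col7a1 is near 2.59 in both NDL25 pools and near 0 in NYPD, and Col6a2 and Col6a3 are lowest in YE.

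Anchoring fibril collagen was the gene with the widest range. Col7a1 encodes type VII collagen, which forms the fibrils that tie the basement membrane of stratified epithelia to the tissue below. Its ratios were -0.29 and 0.30 in NYPD, 1.70 and 2.15 in YB, 0.67 and -0.76 in YC, 0.38 and -0.19 in YD, 1.28 and 1.20 in YE, and 2.59 and 2.59 in NDL25. Both NDL25 pools were above all others, and NYPD, YC and YD overlapped around 0. Col7a1 differed between the strains in the F test (adjusted p = 0.0443) and fell 5.99-fold in NYPD against NDL25 (-2.58 ± 0.44, limma adjusted p = 0.0459). In YB against NYPD it was 3.78-fold higher (1.92 ± 0.44, adjusted p = 0.0487). YC and YD had differences of about the same size against NDL25, -2.64 ± 0.44 and -2.49 ± 0.44, which missed the threshold (adjusted p = 0.0886 and 0.112). With session as a block, in a fit that leaves NYPD out, the F test call was lost (adjusted p = 0.0834). The YB and YE differences against NDL25 were -0.66 ± 0.44 and -1.35 ± 0.44 (adjusted p = 0.518 and 0.509).

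In YB against NYPD Col7a1 was the 1 collagen gene of 37 that passed, where 5.18% of all genes were called. The call against NDL25 was lost without either pool of NYPD, YD, YE or NDL25 (adjusted p from 0.0723 to 0.210). The call in YB against NYPD was lost without any pool of NYPD, YB, YD, YE or NDL25 (0.0741 to 0.171), and the F test call likewise (0.0561 to 0.137). Both were kept without either YC pool. The authors' deposited ratios gave -2.79 (adjusted p = 0.101) and 1.84 (0.178) for the 2 contrasts. The array had 1 Col7a1 probe. Of the 10 hemidesmosome partners of Col7a1 and Col17a1, 0 were called by limma in either contrast (2 and 3 had an unadjusted p under 0.05), with medians of 0.09 in NYPD against NDL25 and 0.04 in YB against NYPD, against -0.01 and 0.00 over all genes. Lamb3, a chain of the laminin that binds type VII collagen, had ratios of 0.56 and 1.46 in NYPD, 1.41 and 0.87 in YB, and -0.08 and -0.59 in NDL25 (adjusted p = 0.197 for NYPD against NDL25).

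Among fibril-associated collagens Col16a1 was the gene called. It encodes type XVI collagen, a minor collagen found with fibrils and near basement membranes. Its ratios were 0.35 and 0.38 in NYPD, 0.92 and 0.22 in YB, -0.07 and -0.31 in YC, 0.70 and 0.79 in YD, -0.59 and -1.15 in YE, and -1.01 and -1.03 in NDL25. The NYPD, YB and YD pools lay above the reference, and the YC, YE and NDL25 pools below it. Col16a1 differed between the strains (F test adjusted p = 0.0261, and 0.141 with session as a block in a fit that leaves NYPD out). It was 2.61-fold higher in NYPD than in NDL25 (1.38 ± 0.24, limma adjusted p = 0.0482) and 3.01-fold higher in YB than in NDL25 (1.59 ± 0.24, adjusted p = 0.0157). The YD difference of 1.76 ± 0.24 was larger and missed the threshold of its own contrast (adjusted p = 0.0724), and the YE difference against NYPD was -1.23 ± 0.24 (adjusted p = 0.0515).

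Col7a1 and Col16a1 were the 2 collagen genes of 37 past the F test, against 3.23% of all genes, and the 2 called in NYPD against NDL25, against 1.05% of all genes. Col18a1 missed the F test at an adjusted p of 0.0503. The Col16a1 call in NYPD was lost with the authors' deposited ratios (1.46, adjusted p = 0.0519) and without any pool of NYPD, YC, YD, YE or NDL25 (adjusted p from 0.0555 to 0.215). The call in YB was lost without either NDL25 pool (0.0932 and 0.104), and the F test call without YC, YD or NDL25 pools, NYPD pool 2 or YE pool 2 (0.0536 to 0.0858). A second Col16a1 probe, dim at a mean intensity of 147 against 6848 for the chosen one, stayed between -0.06 and 0.11 in all pools. The mean of both gave 0.67 in NYPD (limma adjusted p = 0.0541) and 0.82 in YB (adjusted p = 0.0151).

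The 2 genes past the F test are shown with the 150 bases before their outermost annotated start, from RefSeq (GRCm38.p6), both on the plus strand, with capitals as above. The stretches are chr9:108953436-108953585 for Col7a1 and chr4:130047667-130047816 for Col16a1.
Col7a1: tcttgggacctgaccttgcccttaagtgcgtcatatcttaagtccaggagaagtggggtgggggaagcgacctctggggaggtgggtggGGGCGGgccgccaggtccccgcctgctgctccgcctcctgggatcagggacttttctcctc
Col16a1: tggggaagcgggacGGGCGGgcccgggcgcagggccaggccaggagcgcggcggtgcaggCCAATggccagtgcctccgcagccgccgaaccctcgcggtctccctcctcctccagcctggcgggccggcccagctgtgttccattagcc
The Col7a1 stretch held 1 GGGCGG match and no match to the other motifs. The Col16a1 stretch held 1 GGGCGG and 1 CCAAT match and had 76.0% G and C, against 64.0% for Col7a1.

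The remaining fibril-associated genes did not pass in any contrast. Type IX collagen, known from cartilage, lay far above the reference in every pool. Col9a1 ran from 3.26 to 4.30 (mean 3.82 ± 0.27, SD over 12 pools, 14.2-fold), Col9a2 from 1.42 to 2.56 (mean 2.01 ± 0.31) and Col9a3 from 0.99 to 2.58 (mean 1.83 ± 0.52). Their strain means spanned 0.47 for Col9a1 and 0.73 for Col9a2. Of 9 cartilage and bone markers, Comp ran from 1.13 to 3.50 and Cnmd, chondromodulin, from 1.79 to 2.88, while Acan, aggrecan, stayed between 0.01 and 0.28 and Matn1, matrilin, between -0.16 and -0.05. The mean of the 9 markers, of which 8 were above background on every array, was 0.75 to 0.95 in all pools, and their part in the type IX values was not tested. Col14a1, named like Col9a3 after its values were seen, binds to type I fibrils and ran from 1.36 to 3.03, 4.59-fold above the reference on average. Col12a1 ran from -0.18 to 0.97 and had 0.75 ± 0.18 in YB against NDL25 (adjusted p = 0.0663). Col19a1 stayed within -0.11 and 0.11.

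By their brightest probes 0 of the 6 basement membrane network collagens passed limma in any contrast. Col4a1 and Col4a2, the chains of the type IV network found in every basement membrane, lay above the reference in most pools. Col4a1 had ratios of 1.21 and 0.67 in NYPD, 0.67 and 1.17 in YB, 0.07 and 0.57 in YC, 0.32 and 0.68 in YD, -0.06 and -0.09 in YE, and 0.75 and 0.30 in NDL25. The YE pools were the lowest, with -1.02 ± 0.27 against NYPD (limma adjusted p = 0.108), and a second probe gave the same order of YE below NYPD. Col4a2 had ratios of 0.59 and 0.54 in NYPD, 0.88 and 0.76 in YB and 0.29 and 0.12 in YE, with a range of 0.12 to 0.88, while its second probe ran from -1.06 to 0.73. The 7 endothelial markers, another source of type IV collagen, averaged 1.16 and 1.17 in YE and 1.54 and 1.32 in NYPD, and their part in these values was not tested. Pecam1, 1 of the 7, had a difference of -0.83 in YE against NYPD that passed limma (adjusted p = 0.0432). It was the lowest of the 7, whose differences reached up to 0.14 with a median of -0.21. Of the 7, 2 had an unadjusted p under 0.05. Col4a1 and Col4a2 lie head to head on chromosome 8, with annotated starts 21 bases apart in GRCm38.p6. Col4a4 stayed between -0.28 and -0.13 and Col4a3 between -0.09 and 0.08. Col4a5 ran from -0.62 to 0.97, both extremes being YB pools. Of the 6 genes, 3 had an unadjusted p under 0.05 in YE against NYPD. Of 15 basement membrane partners, laminins and nidogens among them, 0 were called by limma in any contrast, and 5 had an unadjusted p under 0.05 in YE against NYPD.

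Short-chain network, multiplexin and transmembrane genes included 1 call. Col18a1, a heparan sulfate collagen of basement membranes and the source of endostatin, had ratios of 0.22 and 0.01 in YB and -0.85 and -0.98 in NDL25. The YB pools were the 2 highest of the 12. Col18a1 was 2.05-fold higher in YB than in NDL25 (1.04 ± 0.19, n = 2 pools each, limma adjusted p = 0.0284), and a second probe gave 0.02 and -0.07 in YB against -0.32 and -0.86 in NDL25. Col16a1 and Col18a1 were the 2 collagen genes of 37 called in YB against NDL25, where 3.95% of all genes were called. YB and NDL25 were read in the same session. With session as a block in the fit the differences were the same and the adjusted p was 0.0645 for Col16a1 and 0.0954 for Col18a1, and in a fit of session 2 alone it was 0.213 and 0.179. The Col18a1 call was also lost with the authors' deposited ratios (1.14, adjusted p = 0.0510) and without either pool of YB, YC or NDL25 (0.0532 to 0.152). The salivary markers that set the YB pools apart are given above, and their part in these differences was not tested.

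Col15a1, the other multiplexin, ran from 0.33 to 1.20. Among short-chain network genes Col8a1 ran from -1.86 to 0.16, with the highest value in YB pool 1, Col8a2 from 0.57 to 1.95, also highest there, and Col10a1 from 0.06 to 0.46. Of the transmembrane genes Col17a1, the hemidesmosomal collagen of basal epithelial cells, had ratios of 0.18 and 1.12 in NYPD and -0.02 and -0.01 in NDL25. NYPD pool 2 stood alone at 1.12 and is also where Krt5 and Krt14, basal keratins, had 1.73 and 2.01, against -0.55 to 0.59 in the other pools. Trp63, a basal regulator, had 1.59 and 1.44 in NYPD, against -0.14 to 1.04 elsewhere. It was 3.03-fold higher in NYPD than in NDL25 (limma adjusted p = 0.0215), and the part of basal cells was not tested. The Col17a1 difference was 0.66 ± 0.26 (limma adjusted p = 0.267). Col13a1 ran from 0.04 to 0.82, Col25a1 from -0.17 to 0.25 and Col23a1 from -0.56 to -0.20. The chosen Col23a1 probe was dim (mean intensity 184). A brighter probe (252), which maps to Col23a1 under another name on the array, stayed between -0.13 and 0.08. A dimmer one (123) stayed between -0.20 and 0.12, so the place of Col23a1 below the reference rests on the chosen probe.

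**Figure D4:**
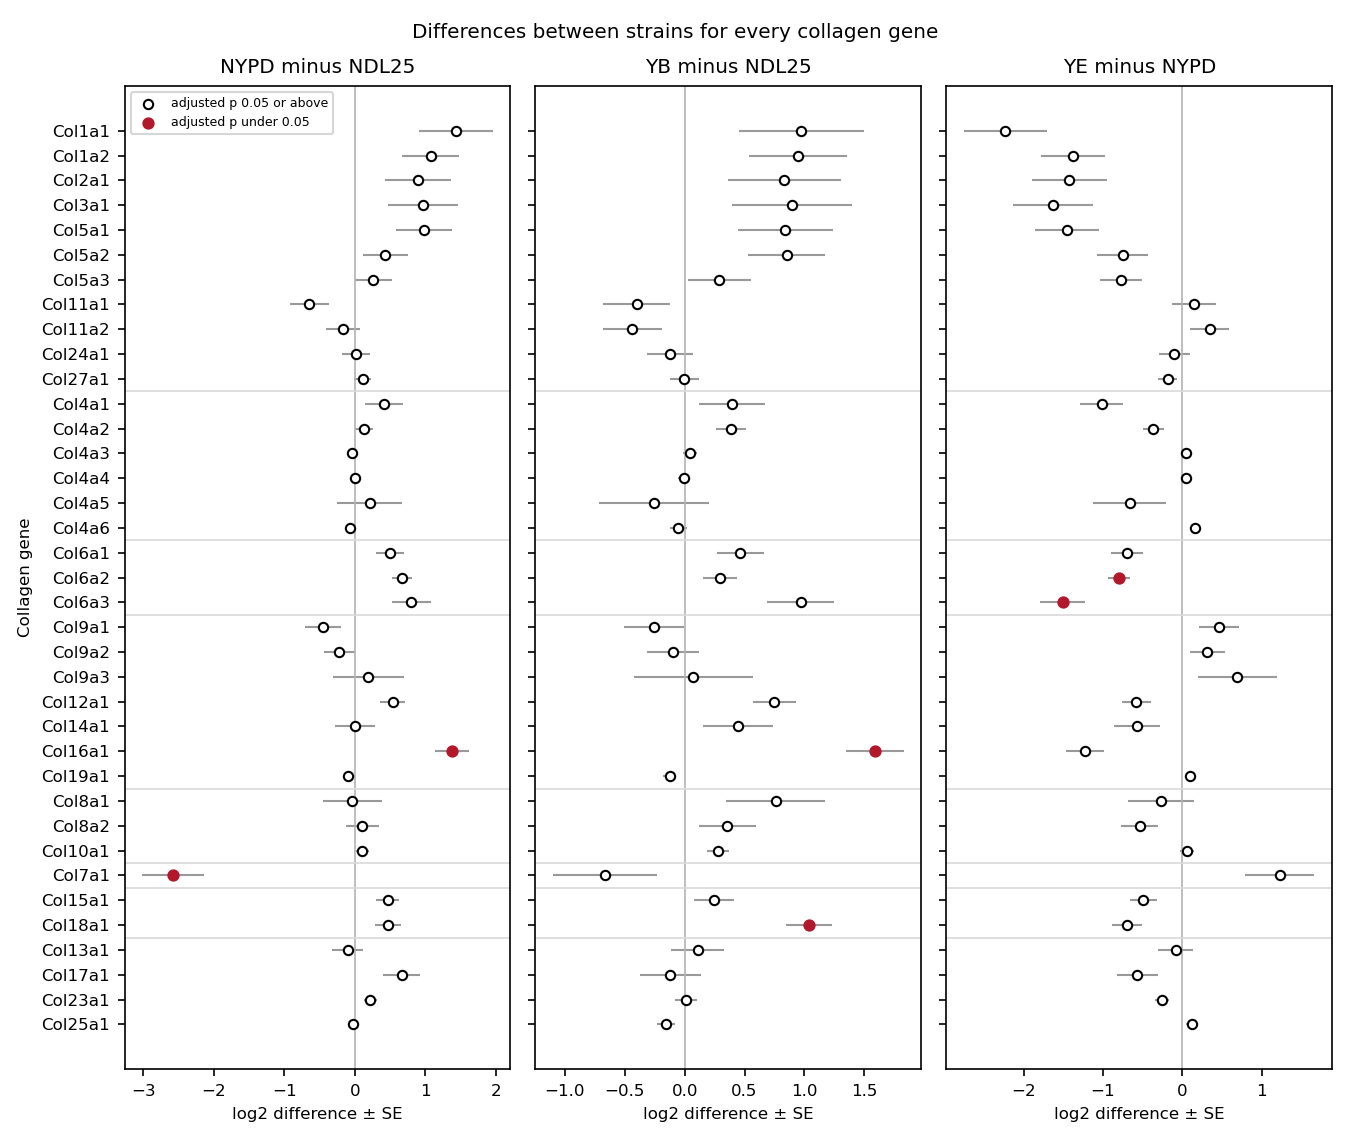
Log2 differences ± moderated SE of all 37 collagen genes for NYPD minus NDL25, YB minus NDL25 and YE minus NYPD, by class. Filled red points passed limma at an adjusted p under 0.05, 2 in each panel. YE minus NYPD has 25 of 37 genes below 0.

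In the other comparisons 0 of 37 collagen genes passed limma. These were YC, YD and YE against NDL25, where 0.00705%, 0.00705% and 0% of all genes were called and 2, 4 and 2 collagen genes had an unadjusted p under 0.05. They also were YC and YD against NYPD, where 0.0176% and 0.0282% of all genes were called. For these, 14 and 7 collagen genes had an unadjusted p under 0.05. The shares are at adjusted p, so they are no baseline for these counts at unadjusted p. In YE against NYPD both YE pools lay below both NYPD pools for 21 of the 37 genes, against 22.2% of all genes, and in NYPD against NDL25 both NYPD pools lay above both NDL25 pools for 17, against 20.3%. In YC against NYPD both YC pools lay below both NYPD pools for 21, against 19.8% of all genes. Over all 37 genes the median difference was -0.13, 0.03 and -0.19 in YC, YD and YE against NDL25. Against NYPD the medians were -0.33 in YC, -0.14 in YD and -0.49 in YE, against 0.00 to 0.01 over all genes. The 4 comparisons with NYPD share its 2 pools, as do the 5 with NDL25. YD against YE, the 1 pair of strains read wholly in session 1, was added after the values were seen. There 0 of 37 genes passed, against 0.0176% of all genes, 6 had an unadjusted p under 0.05, and the median was 0.31. Col16a1 had 1.61 ± 0.24 there (adjusted p = 0.114).

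Several genes had a probe that did not follow the brightest one. Of the 29 further probes of these genes, 16 stayed within 0.5 of the reference in all 12 pools, against 8 of the 37 chosen probes. Those 16 had a median intensity of 166, against 917 for the rest of the 29. Each probe was fitted as a row of its own, which was chosen after the values were seen. The second Col1a1 probe then had 0.04 and 0.49 in NYPD, against -2.17 to -1.12 in the 10 pools of the other strains, so NYPD stood wholly apart from them. That probe was 4.99-fold higher in NYPD than in NDL25 (2.32 ± 0.21, limma adjusted p = 0.0148, where 0.862% of the 40160 probes were called). Its log2 differences against NYPD were -1.51 in YB, -1.96 in YC and -2.37 in YE (adjusted p = 0.0133, 0.0481 and 0.00950, where 4.3%, 0.0398% and 1.83% of probes were called). In that fit Col16a1 and Col18a1 passed in YB against NDL25 (adjusted p = 0.0188 and 0.0333, where 3.1% of probes were called), while Col16a1 in NYPD against NDL25 and Col7a1 in YB against NYPD did not. In YD against NYPD the second Col1a1 probe had -1.96 and missed the threshold (adjusted p = 0.0567). The brightest Col1a1 probe differed from it most in YB pool 1, by 1.23. The dimmest Col1a1 probe stayed between -0.09 and 0.10. For Col4a6 the chosen probe stayed between 0.07 and 0.32, while the 2 others ran from 1.06 to 2.51 and from 0.73 to 2.21, both highest in YD pool 2. For Col27a1 the second probe ran from 0.13 to 1.83, with the NYPD pools and YB pool 1 low, and the chosen probe from -0.39 to 0.08.

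**Figure D5:**
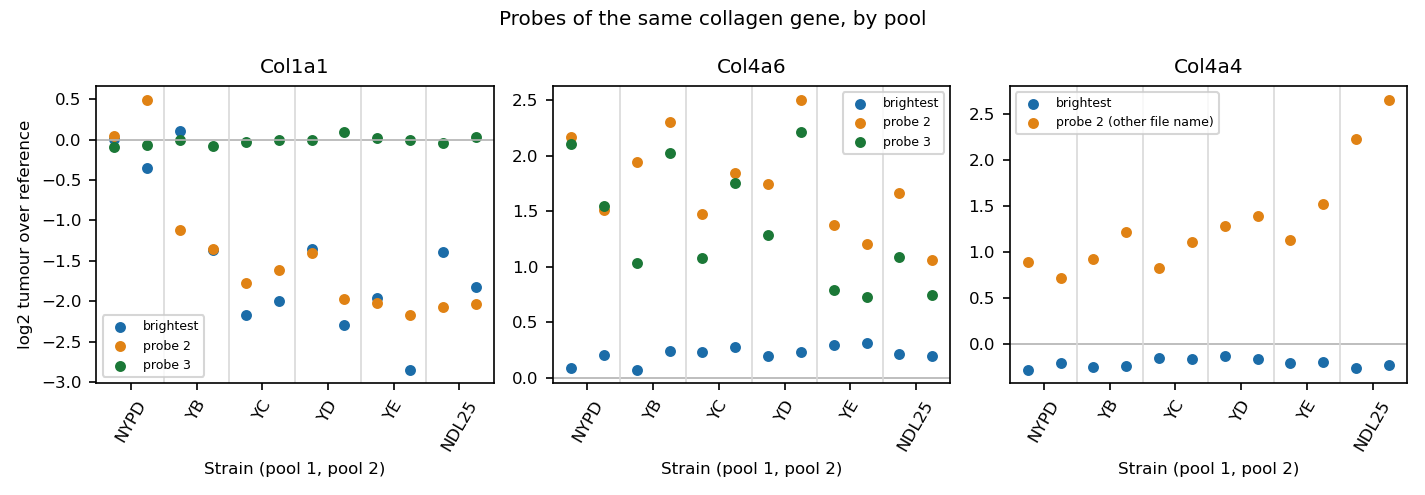
Log2 tumour over reference of each probe of Col1a1, Col4a6 and Col4a4 in the 12 pools, by strain. The second Col1a1 probe is near 0 to 0.49 in NYPD and below -1 elsewhere, 2 Col4a6 probes lie far above the brightest one, and the second Col4a4 probe (under another name on the array) is highest in NDL25.

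Genes that act on collagens were read as lists by role. Of 23 measured genes for collagen biosynthesis and crosslinking, 1 was called in NYPD against NDL25 (1.05% of all genes), where the list median was 0.22 against -0.01 over all genes. It was P3h1, a prolyl 3-hydroxylase, with 0.49 ± 0.06 (limma adjusted p = 0.0261). Bmp1, which cleaves procollagen ends, was 0.59 ± 0.10 higher in YB than in NDL25 (adjusted p = 0.0225) and had a difference of -0.68 in YE against NYPD (adjusted p = 0.0274), each time as the 1 member called (3.95% and 1.86% of all genes). Of 16 fibril assembly partners 1 was called in each of the same 3 contrasts, the matrix protein Fbln2. Its ratios were -0.88 and -1.37 in NYPD, -1.06 and -1.25 in YB, -2.12 and -2.20 in YE, and -2.13 and -2.10 in NDL25. It was 1.99-fold higher in NYPD and 1.95-fold higher in YB than in NDL25 (adjusted p = 0.0432 and 0.0218), and its log2 difference in YE against NYPD was -1.04 (adjusted p = 0.0325). The median of these 16 genes was 0.72 in NYPD against NDL25 and -0.91 in YE against NYPD, next to -0.01 and 0.01 over all genes.

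Of 10 collagen receptors 3 were called in YB against NDL25, all higher, where 3.95% of all genes were called and the salivary markers set the YB pools apart. These were Ddr2, a receptor kinase for fibrillar collagens (0.29 ± 0.06, adjusted p = 0.0362), Lair1, an inhibitory receptor of immune cells (0.37 ± 0.06, 0.0246), and Mrc2, an endocytic collagen receptor (0.80 ± 0.16, 0.0370). Lair1 was also higher in YB than in NYPD (0.36 ± 0.06, adjusted p = 0.0242). No receptor was called in NYPD against NDL25 or in YE against NYPD, where 1.05% and 1.86% of all genes were called. There 3 and 1 of the 10 had an unadjusted p under 0.05, and the lowest limma adjusted p was 0.0950 and 0.0531.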

How the data were processed

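RNA of 12 tumour pools (2 per strain) was measured on 24 two-colour arrays. Per the file headers, the authors deposited scanner intensity values, extracted with Feature Extraction, and a table with 1 log2 ratio per dye-swap pair, so 1 column a pool; the submitters' processing notes name RMA and limma, and the log base of that table is assumed. Here intensities were background corrected (normexp, offset 50) and loess normalised in limma 3.58.1 (R 4.3.3). Each ratio was turned to tumour over reference by luminal and milk markers, and the 2 arrays of a pool were averaged. Of 41174 probes, 702 with spot marks, 312 dim in the tumour channel (well above background on fewer than 4 arrays) and 11808 with a brighter probe of the same gene were left out. One model with 6 strain means was fitted to 28352 genes (6 residual degrees of freedom), with an F test, 9 contrasts and Benjamini-Hochberg adjustment at 0.05. Probes were named through RefSeq accessions and symbols, and 10140 kept the name of the array's design.

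Named with values were members past a test, the 3 brightest of each class and the one with the widest range of strain means. Pathway genes were named where called, except for Lamb3, which was named outside that rule and passed in no contrast. The members and lists were chosen with earlier results of these data known. The fit was tested on simulated data for NYPD against NDL25 over 28352 genes. It recovered 74 of 100 genes moved by 1 and 90 of 100 moved by 2 on the log2 scale, with 8 false calls. The moved genes were drawn at random, with independent noise and no session effect. The median moderated SE over genes was 0.11, against 0.44 for Col7a1 and 0.28 for Col6a3. Recovery for the collagen genes alone was not simulated. The p-values reflect the spread between pools of 5 tumours. The number of pools, 2 per strain, limits the precision, as the 2 arrays of a pool measure the same RNA. Alternatives were the processed signals, other scaling, single arrays, the deposited ratios, probe means, other filters, session and pool blocks, pairs of strains alone and each pool left out; fits of every probe, of YD against YE and without 2 pools were chosen after seeing the data.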

Additional observations from a re-analysis of the deposited data

How the results depend on the processing

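Each result was run in 25 to 27 settings, and none reversed its direction in them. The counts of called collagen genes were small. They moved in 15 to 18 of 25 settings in the F test, NYPD against NDL25 and YB and YE against NYPD, in 11 of 27 in YB against NDL25, and in 0 to 3 in the other contrasts. The F test called 1 gene with the processed signals and 1 with the authors' deposited ratios, 0 with session as a block and 4 without the first pools of NYPD and YB (chosen after seeing the data), against 2 as reported. NYPD against NDL25 called 0 with the processed signals, the first arrays, the deposited ratios and the 2 strains alone, 1 with median centring, the second arrays, probe means and an intensity trend, and 4 without those first pools, against 2. YB against NDL25 called 1 with the deposited ratios and without the first pools, and 0 with session as a block, within session 2 and with the 2 strains alone, against 2. YB against NYPD called 0 with the processed signals, median centring, the first arrays, the deposited ratios and the 2 strains alone, and 2 without the first pools, against 1. YE against NYPD called 1 with the first or second arrays and 0 with the deposited ratios and the 2 strains alone, against 2. YC against NDL25 called 1 with the first arrays, YC against NYPD 1 with the second arrays and 2 without the first pools, and YD against NYPD 1 without the first pools, against 0 each. Without the first pools NYPD and YB have 1 pool each, assumed to vary like the other strains. There Col16a1 passed in the F test (adjusted p = 0.0301) and in NYPD and YB against NDL25 (0.0458 and 0.0463). Col7a1 did not pass in the F test (0.0878), NYPD against NDL25 (0.113) or YB against NYPD (0.182), nor Col18a1 in YB against NDL25 (0.129), nor Col6a2 and Col6a3 in YE against NYPD (0.0538 and 0.0571), so the further calls are of other genes. With each pool left out in turn the count ran from 0 to 4 in the F test, 0 to 2 in NYPD against NDL25, 0 to 5 in YB against NDL25, 0 to 2 in YB, YC and YD against NYPD, 0 to 4 in YE against NYPD and 0 to 1 in YD against NDL25, and stayed at 0 in YC and YE against NDL25 and in YD against YE. The pairs of strains alone and single sessions leave fewer pools and degrees of freedom; for the other settings the cause was not tested.

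Pool numbers did not pair the samples over all strains. Of 15 strain pairs, 7 had a correlation of same-numbered deviations over 0.1 (range -0.17 to 0.71). The correlation was 0.71 for YC and YD, 0.62 for YD and YE and 0.46 for YC and YE. For NYPD it was -0.17 with YC and -0.17 with YD. With the pool number as a replicate block the count was 0 in YB against NYPD, where Col7a1 had an adjusted p of 0.0597, and 4 in YE against NYPD. Col7a1 had an adjusted p of 0.0591 in the F test of that fit. Session could not be fitted as a block for differences with NYPD, which lay in a session of its own. Differences under Aquantile are the same by construction. With 2 pools a strain, small differences were not detectable.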

Other observations

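Of the 8 probes that carry another name on the array and map to collagen genes, 5 belonged to genes outside the 37 and are not counted among them. A probe named E130010M05Rik, which maps to Col4a4 by a synonym and was chosen after its values were seen, had ratios of 0.89 and 0.72 in NYPD, 0.92 and 1.22 in YB, 0.82 and 1.11 in YC, 1.28 and 1.39 in YD, 1.13 and 1.52 in YE, and 2.23 and 2.65 in NDL25. Both NDL25 pools were above the 10 others. Fitted as a probe of its own, it fell by 1.64 on the log2 scale in NYPD against NDL25 (limma adjusted p = 0.0243) and by 1.37 in YB against NDL25 (adjusted p = 0.0152), while the brighter Col4a4 probe stayed between -0.28 and -0.13 in all pools. A Col11a1 probe named C530001D20Rik ran from 1.27 to 3.14, on the same side of the reference as the brighter Col11a1 probe.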
